A study of Homo sapiens with 6 samples.

Results

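NGP is a human neuroblastoma cell line, and the study asked how its transcriptome changed when CAMKV, a calmodulin kinase-like pseudokinase, was knocked down. The genes described here are the 2 LIN28 paralogues, the 3 IGF2BP paralogues, the 2 HMGA paralogues and DICER1, which were taken by gene symbol. All 8 symbols were found among the 19868 entries of the count table. The Control group held 3 libraries, described as sh-control, and the CAMKV-KD group held 3 libraries, described as sh-CAMKV. Both groups were grown in RPMI-1640 with 20% serum, and each library was made from 100 ng of total RNA. Whether the 3 libraries of each group are independent cultures is not stated in the labels, and the spread behind each p-value may therefore be technical. Nor do they say how many hairpins or clones were used, so loss of CAMKV cannot be told apart from other effects of the reagent.

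LIN28A and LIN28B are RNA-binding proteins that bind precursors of the let-7 microRNAs and block their maturation. Mature let-7 in turn pairs with sites in many growth-related mRNAs and represses them, LIN28 mRNAs included, so that each holds the other down. IGF2BP and HMGA mRNAs are well-known let-7 targets of fetal and tumour cells, and DICER1 encodes the nuclease that makes mature microRNAs. In neuroblastoma, LIN28B is known as an oncogene that keeps let-7 low and MYCN high. Mature microRNAs were not measured here, and the counts describe mRNAs.

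The let-7 sequences are shown because the link between these genes runs through one short stretch, the seed. RefSeq (GRCh38.p14) held 9 mature 5p sequences of the family from 12 loci. All 9 carried 1 seed, bases 2 to 8, in capitals below, while the 3′ part differed, by 4 bases between let-7a and let-7i.
hsa-let-7a-5p: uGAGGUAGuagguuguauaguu
hsa-let-7d-5p: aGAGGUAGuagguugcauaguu
hsa-let-7i-5p: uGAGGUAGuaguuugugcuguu
hsa-miR-98-5p: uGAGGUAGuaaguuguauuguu

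A transcript that pairs with this seed reads CTACCTC (a 7mer match), and CTACCTCA is the 8mer match. The sense strand of the 3′ UTR of 1 principal coding transcript per gene in GENCODE 29 (GRCh38) was searched, and the 7mer count includes 8mers. Of the 8 genes, 7 held at least a 7mer match and 6 an 8mer match. Among 12788 tested genes with a 3′ UTR, 3.77% held an 8mer. The 8 genes were picked around let-7, so their richness in matches follows from that choice and is no finding. Their 3′ UTRs run from 1347 to 6206 bases, against a median of 1093 for tested genes without an 8mer. IGF2BP1 had 3 8mers in 6206 bases, where 11.6% of genes with a 3′ UTR of 80 to 125% of that length held any. LIN28B had 2 in 4549 bases, where 9.02% of similar genes held one. LIN28A, IGF2BP2, IGF2BP3 and HMGA2 had 1 each, against 6.1%, 4.35%, 4.12% and 5.67% of genes of similar length. HMGA2 also had 3 further 7mer matches, and HMGA1 had 1 7mer and no 8mer, where 8.7% of similar genes held a 7mer or 8mer. DICER1 had no match in its 3′ UTR and 3 8mers in its coding sequence of 5766 bases. Coding matches were not counted over all genes, so no share can be set beside these. LIN28B had 1 7mer in its coding sequence, and CAMKV, outside the 8 genes, had 1 8mer there.

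One match per gene is printed below with the bases before it, for the genes on which the results turn, and with both 8mers of LIN28B. Capitals mark the seed match.
LIN28B first: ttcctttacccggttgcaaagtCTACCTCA
LIN28B second: ttactctgtttacagcaaaaggCTACCTCA
IGF2BP1 first: gcaatgctgtgtgcgaagtaaaCTACCTCA
IGF2BP3: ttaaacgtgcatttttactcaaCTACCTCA
HMGA1: ccatttttcctctgttcacaaaCTACCTCt
HMGA2: ggggcgccaacgttcgatttCTACCTCA
DICER1 coding: caggaaatacccgtgcaaccaaCTACCTCA
The LIN28B windows lie on the plus strand at chr6:105078805-105078834 and chr6:105081414-105081443. Those of IGF2BP1 and HMGA2 lie on the plus strand at chr17:49051054-49051083 and chr12:65963293-65963320, and that of HMGA1 at chr6:34245822-34245851. IGF2BP3 has its window on the minus strand at chr7:23311795-23311824, and DICER1 at chr14:95103748-95103777. The genes themselves span chr6:104936616-105083332 (LIN28B), chr1:26410778-26429722 (LIN28A), chr17:48997412-49055650 (IGF2BP1), chr3:185643739-185825056 (IGF2BP2), chr7:23310209-23470467 (IGF2BP3), chr6:34236873-34246231 (HMGA1), chr12:65824131-65966295 (HMGA2) and chr14:95086228-95158010 (DICER1). A match of letters is a description and not a shown binding site.

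Total counts per library ran from 20238281 to 24701564. CAMKV stood at 83.9, 77.3 and 84.6 CPM (counts scaled to library size with TMM factors) in Control and at 25.4, 23.2 and 25.4 CPM in CAMKV-KD, so the libraries match their labels. The log2 fold change of CAMKV by edgeR's quasi-likelihood test was −1.73 ± 0.065 (SE; adjusted p = 0.000119). All 15 neuroblastoma markers checked reached 1 CPM. At an adjusted p below 0.05 (edgeR), 2 rose and 5 fell, or 46.7% called, against 36.3% of all tested genes. The summed level of the 15 markers was 3117 to 3926 CPM in Control and 2669 to 2929 CPM in CAMKV-KD. Of 8 Schwann and glial markers, 6 stayed below 1 CPM in both groups and SOX10 and FABP7 had no count, with sums of 2.65 to 4.04 and 1.58 to 2.03 CPM. Of 10 blood and endothelial markers, 9 stayed below 1 CPM, and CD3E and HBB had no count. The summed level of that list was 4.92 to 6.65 CPM in Control and 18.4 to 19.4 CPM in CAMKV-KD, led by KDR, a vascular growth factor receptor. Of 7 epithelial markers, 5 stayed below 1 CPM and KRT18 and KRT5 had no count, with sums of 2.83 to 3.53 and 2.02 to 4.95 CPM. Of 9 fibroblast and stromal markers 5 rose, led by the smooth muscle actin gene ACTA2, and 1 fell, and COL1A2 stayed below 1 CPM. That is 66.7% called, against the same 36.3%, in a list of few genes. The 9 markers summed to 728.1 to 910.9 CPM in Control and 996.9 to 1065 CPM in CAMKV-KD. The part of these shifts in the results below was not tested.

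None of the 6 genes that passed the filter on low counts was called between the groups at an adjusted p below 0.05 in edgeR's quasi-likelihood test, where 36.3% of all 13366 tested genes were. At an unadjusted p below 0.05 the count was 0 of 6 as well, where 46.1% of all tested genes were, and DESeq2's Wald test and limma-voom also called 0 of 6, where they called 43.4% and 37.1% of genes. With upper-quartile factors it was 0 of 6 against 36.1%. LIN28A and HMGA2 were too low to be tested. The 6 genes fell into those with narrow intervals (IGF2BP3 and HMGA1), an intermediate one (LIN28B), and those with wide intervals (IGF2BP1, DICER1 and IGF2BP2). Of the last, IGF2BP1 scattered widely between libraries, DICER1 stood high in Control 3 alone, and IGF2BP2 had few counts. In bulk RNA, fewer cells expressing a gene and less RNA per cell cannot be told apart.

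**Figure D1:**
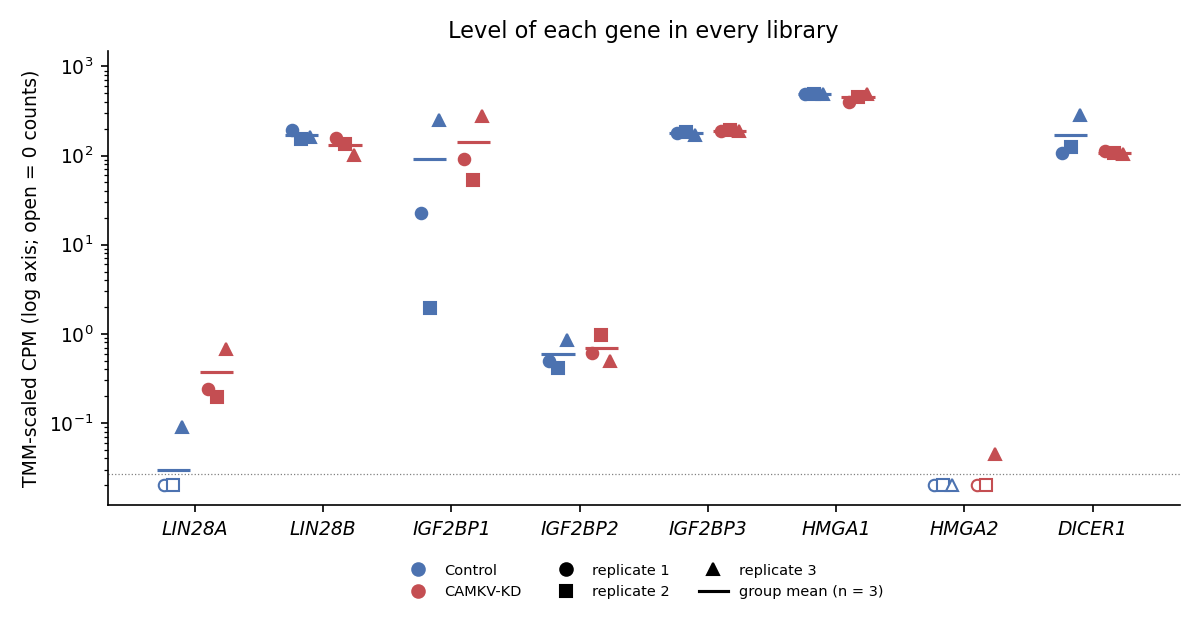
TMM-scaled CPM on a log axis for each of the 8 genes in the 3 Control (blue) and 3 CAMKV-KD (red) libraries, with group means as bars (n = 3) and open symbols below the dotted line for libraries with 0 counts; no mean is drawn for HMGA2. HMGA1 and IGF2BP3 form tight clusters, whereas IGF2BP1 runs from 1.93 to 278.1 CPM.

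LIN28B, the paralogue expressed in these cells, was at 193.3, 152.6 and 160.6 CPM in Control and at 156, 133.2 and 102.7 CPM in CAMKV-KD. The highest library was a Control and the lowest a CAMKV-KD library, but CAMKV-KD 1 lay between Control 2 and Control 3, so the groups overlapped. Group means were 168.8 ± 21.6 and 130.7 ± 26.8 CPM (SD, n = 3). The log2 fold change was −0.37 ± 0.18 (SE; adjusted p = 0.166, edgeR), with a 95% interval from 0.568 to 1.05 times the Control level. The data thus bound a fall of LIN28B at about that lower limit, and a small rise is inside the interval too. It ranged from −0.52 without CAMKV-KD 1 to −0.22 without CAMKV-KD 3, and LIN28B was called in none of the 6 fits without a library (adjusted p from 0.086 to 0.363).

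LIN28A, the paralogue best known from pluripotent cells, had 0, 0 and 2 counts in Control and 6, 4 and 15 counts in CAMKV-KD. Every CAMKV-KD library had more counts than any Control library, at 0.194 to 0.669 CPM against at most 0.0897 CPM. Among tested genes, 52.8% had groups that did not overlap, and 26.2% did so with CAMKV-KD higher. Over the summed counts, 25 against 2, the ratio was 12.6, with an exact 95% interval of 3.14 to 110.0 that covers counting error only. Without the filter on low counts, LIN28A was not called (adjusted p = 0.0848, edgeR), in a fit that called 28.2% of genes. Even in CAMKV-KD its level was low. Per kilobase of exon it was 0.0919 CPM, against 22.9 CPM for LIN28B in the same libraries.

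The 5 genes whose log2 level followed LIN28B most closely over the 6 libraries were MAP3K5, a stress-activated kinase (Pearson r = 0.992), ENPEP, an aminopeptidase (0.987), RASA4 (0.972), PPP1CC, a protein phosphatase catalytic subunit (0.97), and PPP1R32 (0.97). They were the top of 12515 genes compared and 6 libraries give few points, so the values are a description. MAP3K5 went from 17.7, 14.8 and 15.4 CPM in Control to 15, 13.1 and 11.6 CPM in CAMKV-KD, the same order of libraries as LIN28B. Like LIN28B, none of the 5 was called by edgeR with all 6 libraries (adjusted p from 0.141 to 0.173), and PPP1R32 was called without CAMKV-KD 1 (adjusted p = 0.0366).

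IGF2BP proteins bind mRNAs, many of them carrying m6A, and protect them from decay. IGF2BP3 had the smallest pooled within-group SD of the 6 tested genes (0.0435 on the log2 scale), at 179.4, 183.6 and 171.5 CPM in Control and 186.8, 195 and 186.6 CPM in CAMKV-KD. The lowest CAMKV-KD library lay above the highest Control library, but by little, and 26.2% of tested genes showed such a separation upward. Means were 178.2 ± 6.14 and 189.4 ± 4.77 CPM (SD, n = 3), and the log2 fold change was 0.09 ± 0.04 (SE; adjusted p = 0.143, edgeR). The 95% interval ran from 0.992 to 1.14 times the Control level, the narrowest of the 6 genes. Scaled by library totals, where the median of all genes rose from 0.0045 to 0.064, IGF2BP3 was called higher at 0.15 (adjusted p = 0.0301), in a fit that called 37.3% of genes.

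IGF2BP1 was at 22.7, 1.93 and 250.6 CPM in Control and at 91.6, 53.7 and 278.1 CPM in CAMKV-KD, from 550, 42 and 5586 and from 2266, 1109 and 6238 counts. The third library of each group was the highest, and Control 2 had less than a hundredth of the level in Control 3. Within Control the highest library exceeded the lowest 130-fold, and within CAMKV-KD 5.18-fold. The pooled within-group SD of its log2 level was 2.52, and 12 of 12516 genes with a mean of at least 1 CPM (0.0959%), IGF2BP1 included, had an SD at least as large, against a median of 0.147. The log2 fold change was 0.62 ± 1.6 (SE; adjusted p = 0.796, edgeR), and its 95% interval, from 0.0999 to 23.7 times the Control level, leaves the direction undetermined. It was 3.51 without Control 3, 0.05 without Control 2 and −0.34 without CAMKV-KD 3, and 2.31 in limma-voom. The cause of the scatter was not tested.

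IGF2BP2, the third paralogue, was at 0.496, 0.413 and 0.853 CPM in Control and 0.606, 0.969 and 0.49 CPM in CAMKV-KD, from 9 to 20 counts per library. The groups overlapped, although the lowest library was a Control and the highest a CAMKV-KD library, and the log2 fold change was 0.22 ± 0.41 (SE; adjusted p = 0.714, edgeR; 95% interval 0.573 to 2.37 times Control). Per kilobase of exon, IGF2BP3 mRNA was at 41.9 ± 1.44 CPM and IGF2BP2 mRNA at 0.153 ± 0.0612 CPM in Control (SD, n = 3).

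**Figure D2:**
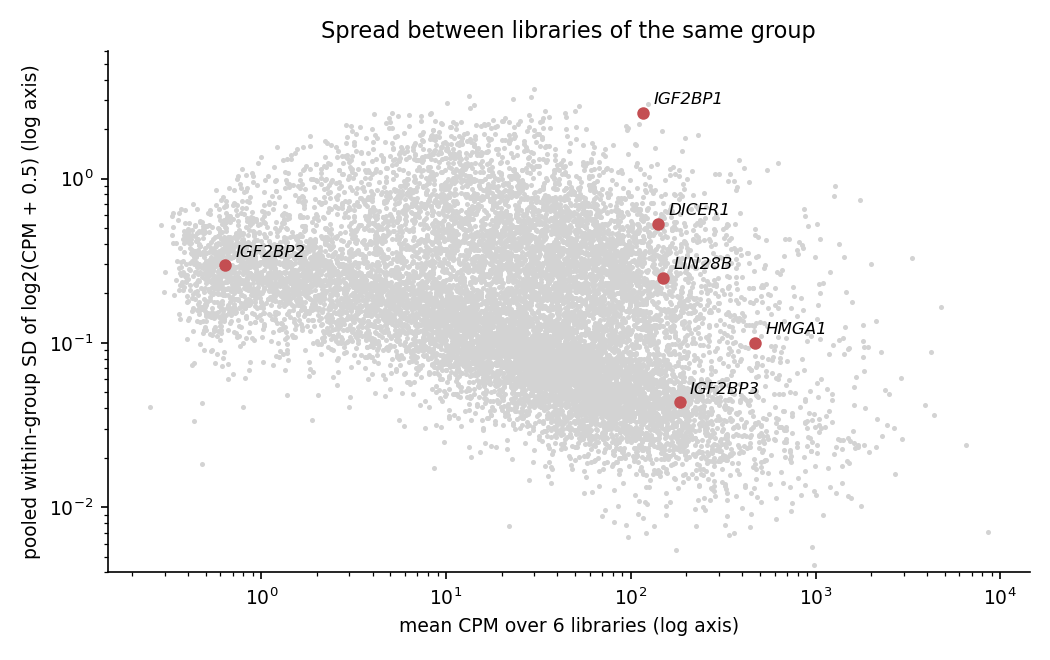
Each point is a tested gene, with its mean CPM over 6 libraries on the x axis and the pooled within-group SD of log2(CPM + 0.5) on the y axis, both on log axes, and the tested genes described here in red. IGF2BP1 stands at the upper edge with an SD of 2.52, DICER1 at 0.532, and IGF2BP3 at 0.0435 within the bulk of genes of its level.

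HMGA proteins are small architectural chromatin proteins that bend AT-rich DNA. HMGA1 was the most abundant of the 8 genes, at 492.4, 487.5 and 484.7 CPM in Control and 401.9, 457.4 and 487.1 CPM in CAMKV-KD. The Control libraries lay within 1.02-fold of each other, while CAMKV-KD 3 reached the Control level and CAMKV-KD 1 was lowest. Means were 488.2 ± 3.94 and 448.8 ± 43.2 CPM (SD, n = 3), and the log2 fold change was −0.12 ± 0.073 (SE; adjusted p = 0.254, edgeR). The 95% interval ran from 0.81 to 1.04 times the Control level. Processed pseudogene copies of HMGA1 exist in the genome, and how reads shared with them were counted is not given in the sources used here.

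HMGA2, the classic let-7 target with repeated sites in its 3′ UTR, was nearly silent. It had 0 counts in every library but CAMKV-KD 3, which had 1. A count of 0 in Control allows a level of up to 0.0439 CPM over the group (3 counts, counting error only), against 488.2 CPM for HMGA1. No comparison between groups was detectable at this depth.

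DICER1 was at 107.3, 125.4 and 283.6 CPM in Control and at 111.1, 106.6 and 105.2 CPM in CAMKV-KD. Control 3, with 6321 counts, stood 2.64-fold above Control 1, while the CAMKV-KD libraries lay within 1.06-fold of each other and next to the other Control libraries. The log2 fold change was −0.68 ± 0.39 (SE; adjusted p = 0.238, edgeR; 95% interval 0.317 to 1.24 times Control). Control 3 decided its size: without that library it was −0.11. The fits that left out another library gave −0.93 to −0.66. The pooled within-group SD of the log2 level of DICER1 was 0.532. Of 12516 genes with a mean of at least 1 CPM, 12.9% had an SD at least as large.

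**Figure D3:**
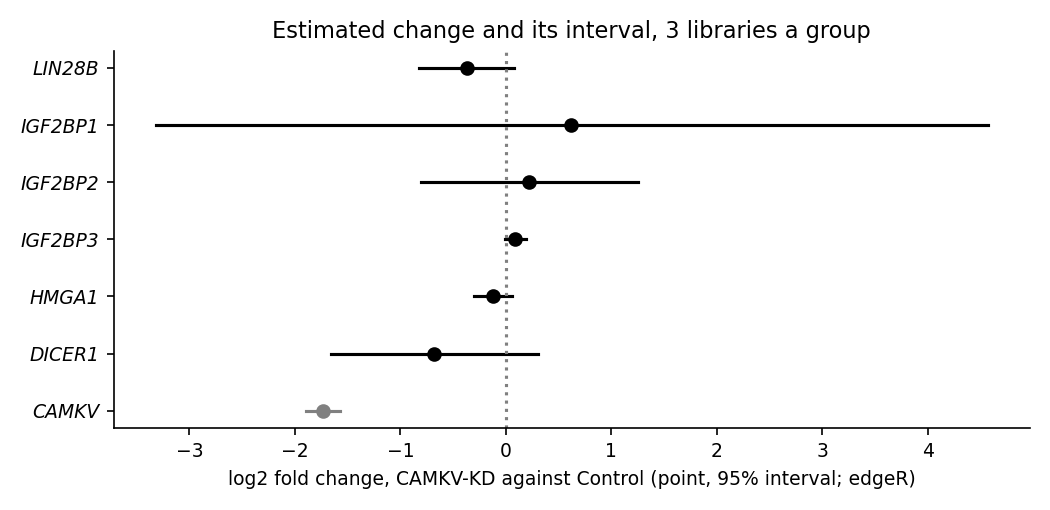
Log2 fold change of CAMKV-KD against Control on the x axis, with the 95% interval from edgeR as a line, for the 6 tested genes in black and CAMKV in grey (3 libraries a group). The intervals of the 6 genes all include 0, and they run from narrow for IGF2BP3 and HMGA1 to more than 7 log2 units for IGF2BP1.

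**Figure D4:**
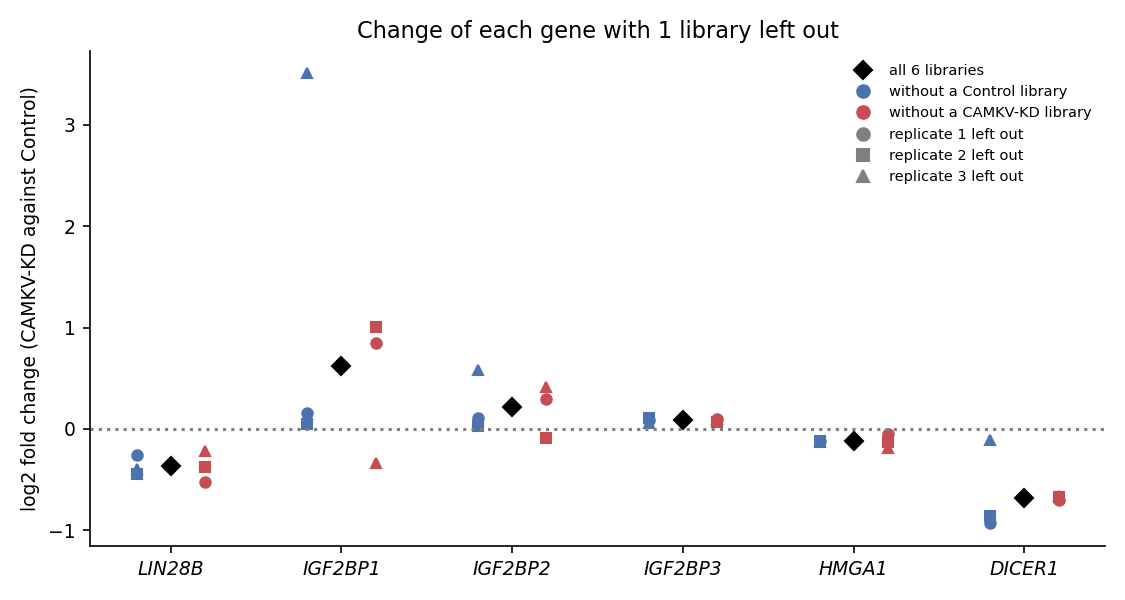
Log2 fold change on the y axis for each tested gene with all 6 libraries (diamonds) and with 1 Control (blue) or CAMKV-KD (red) library left out, the symbol giving the replicate. IGF2BP1 moves between −0.34 and 3.51 and DICER1 between −0.93 and −0.11, while IGF2BP3 stays between 0.06 and 0.11.

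Per kilobase of exon, HMGA1 mRNA led the order in Control at 210 ± 1.69 CPM (SD, n = 3), followed by IGF2BP3 at 41.9 ± 1.44, LIN28B at 29.6 ± 3.79, DICER1 at 16.1 ± 9.06 and IGF2BP1 at 11.1 ± 16.7. HMGA1, IGF2BP3 and LIN28B did not overlap in their Control libraries, whereas DICER1 and IGF2BP1 did not differ beyond their spread, and IGF2BP1 in Control 3, at 30.3, lay within the LIN28B libraries. In CAMKV-KD the means were 193 ± 18.6, 44.6 ± 1.12, 22.9 ± 4.7, 10.1 ± 0.29 and 17.1 ± 14.5 CPM per kilobase in the same order of genes. IGF2BP1 there had libraries from 6.49 to 33.6, on both sides of DICER1 and of LIN28B.

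Ratios between 2 of the genes within a library do not depend on scaling. Of 6 pairs listed, 5 had at least 10 counts in both genes, and an exact two-sided permutation test over 3 against 3 libraries cannot go below 0.1. The log2 ratio of LIN28A to LIN28B was −13.19, −12.7 and −10.48 in Control and −9.21, −9.26 and −7.22 in CAMKV-KD, a difference of 3.56 with p = 0.1 (0.5 adjusted over the 5 pairs; exact permutation test). It rests on the few LIN28A counts and the pseudocount of 0.5. IGF2BP1 to IGF2BP3 went from −2.98, −6.56 and 0.55 to −1.03, −1.86 and 0.58, with overlapping groups (difference 2.23, exact permutation p = 0.4, adjusted 0.667). IGF2BP1 to IGF2BP2 differed by 2.08 with the same p values. Single libraries decided the size of both differences. For IGF2BP1 to IGF2BP3 it was 0.45 without Control 2 and 4.0 without Control 3, and for IGF2BP1 to IGF2BP2 it was 0.53 and 3.53, and 1.21 without CAMKV-KD 3. IGF2BP3 to IGF2BP2 (−0.14) and LIN28B to DICER1 (0.15) had an exact permutation p of 0.8 each.

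Beyond the genes above, the let-7 target list held 31 other tested genes, of which 6 rose and 8 fell. That is 45.2% called, against 36.3% of all tested genes, and the median log2 fold change was −0.13 against 0.0045 for all genes. This share leaves out the 6 tested genes described above, none of which was called. With them, 14 of 37 list genes were called, or 37.8%, near the share of all tested genes (median −0.121). COIL (the Cajal body protein coilin) rose by 0.31, TGFBR1 (a TGF-beta receptor kinase) by 0.25 and PLAGL2 (a zinc finger transcription factor) by 0.34. CDK6, a kinase of the G1 phase, fell from 480.1 ± 4.26 to 174.8 ± 3.68 CPM (SD, n = 3; log2 −1.46 ± 0.027 SE; adjusted p = 3.29e-05, edgeR). STARD13, a RhoGAP, fell by 1.55 and IGF1R, the receptor of insulin-like growth factors, by 0.56. In the 3′ UTR searched, COIL, TGFBR1 and IGF1R held 1 8mer each, and PLAGL2, CDK6 and STARD13 held no 8mer. With 1 library left out the whole list had 4 to 7 genes higher and 3 to 6 lower, both fewest without Control 2. Those fits called 28.5% to 29.3% of all tested genes. Of the 22 tested list genes with an 8mer in the 3′ UTR, 3 rose and 4 fell, and of the 15 without one, 3 rose and 4 fell. The equal counts are a smaller share of the 22 than of the 15, beside 36.3% of all tested genes with all 6 libraries.

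**Figure D5:**
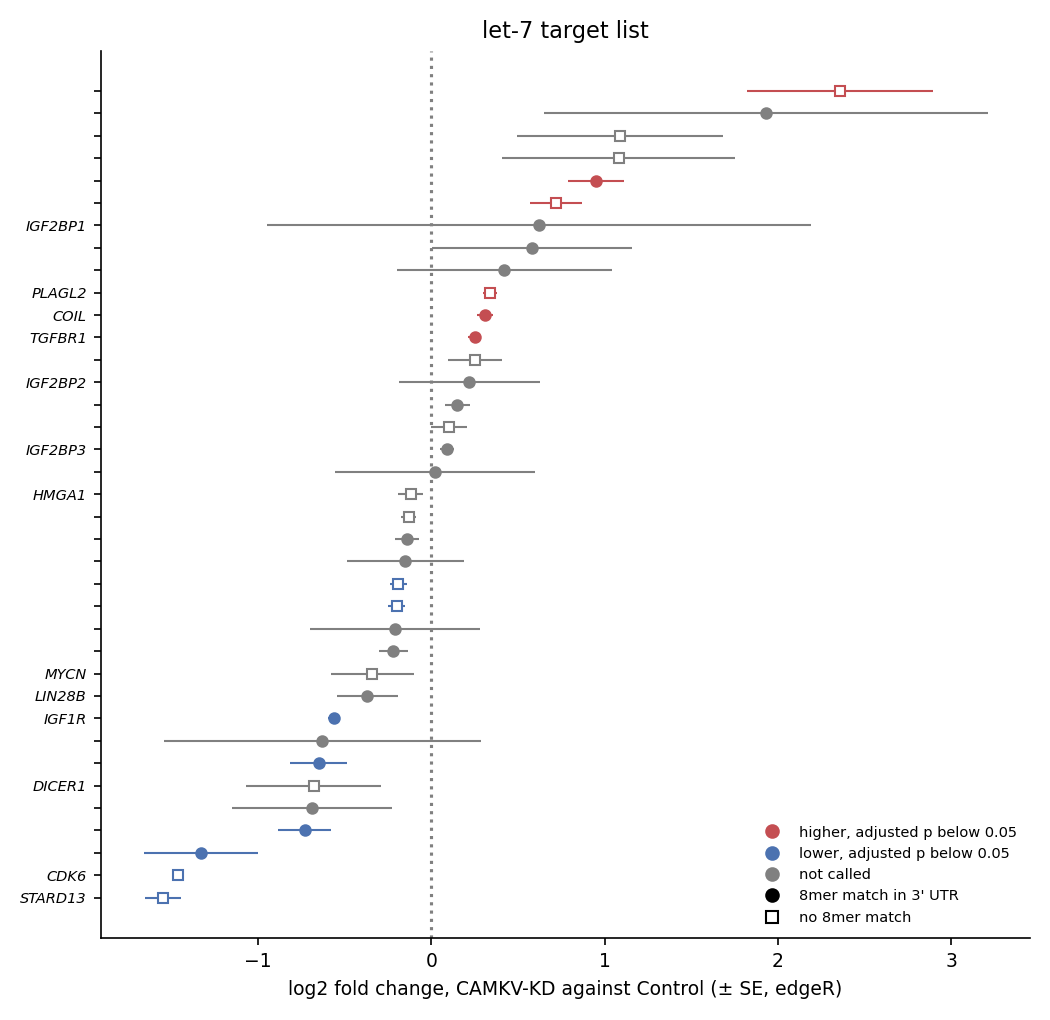
Log2 fold change ± SE of the 37 tested genes of the let-7 target list, the 6 tested genes described here included, ordered by value and labelled where the text names the gene, with calls in red (higher) and blue (lower), filled circles for an 8mer in the 3′ UTR and open squares for none. Called genes stand on both sides of 0, with and without an 8mer.

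Over all tested genes with a 3′ UTR, the median log2 fold change was 0.004 for 12306 genes with no 8mer, 0.034 for 461 with 1 and 0.187 for 21 with 2 or more, LIN28B and IGF2BP1 among the last. In the same order the quartiles were −0.36 and 0.34, −0.27 and 0.32, and −0.37 and 0.38, so the classes overlapped widely. Of these classes 17.4%, 17.8% and 19% were called higher, against 17.3% of all tested genes, and 19.3%, 17.4% and 19% were called lower. Genes with more matches had longer 3′ UTRs, with medians of 1093, 3030 and 5124 bases. Among genes with 2000 to 5000 bases, the medians were 0.015 without an 8mer (2926 genes), 0.107 with 1 (181 genes) and −0.145 with 2 or more (8 genes), so the order did not hold for the last class. There 19.1% without an 8mer, 21.5% with 1 and 12.5% with 2 or more were called higher, and 20%, 12.2% and 12.5% were called lower. HUWE1, whose gene hosts let-7 and miR-98 hairpins, was the sole host transcript of 8 listed with an entry in the table. It was at 98.6, 152.3 and 135.3 CPM in Control and 64.8, 166 and 81 CPM in CAMKV-KD, with overlapping groups (log2 −0.31 ± 0.4 SE; not called).

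In the list of microRNA processing and let-7 turnover genes, which holds DICER1, 3 of 24 rose and 2 fell. That is 20.8% called against 36.3% of all tested genes, a difference of few genes in a list of this size. The median was 0.076 against 0.0045. DGCR8, the RNA-binding partner in the nuclear microprocessor, rose from 52.6, 41.6 and 55.9 to 119.1, 97.6 and 118.9 CPM (log2 1.16 ± 0.14 SE; adjusted p = 0.00268, edgeR), with groups that did not overlap. DDX5, a helicase of the microprocessor, rose by 0.87. DROSHA, its nuclease, was at 0.92, with 112.8, 107.7 and 57.9 CPM in CAMKV-KD against 45.3, 47.3 and 54.1 CPM in Control. The call held without CAMKV-KD 3 and was lost when any other library was left out (adjusted p up to 0.127), and also with upper-quartile factors, without the filter on low counts and in limma-voom. HNRNPA1, which binds let-7 precursors and has near-identical copies in the genome, fell by 0.27. AGO1, an Argonaute, was at −0.37, a call that held without Control 2 or CAMKV-KD 3 and was lost in the other 4 fits (adjusted p up to 0.0778).

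Of 13 tested mRNAs known to be bound by IGF2BP proteins, 4 rose and 2 fell. That is 46.2% called against 36.3% of all tested genes, a difference of few genes in a list of this size, and the median was −0.086. IGF2, the mRNA after which the family is named, was at 5798, 5798 and 5420 CPM in Control and at 2184, 2140 and 2196 CPM in CAMKV-KD, a log2 fold change of −1.38 ± 0.032 (SE; adjusted p = 5e-05, edgeR). SRF, a transcription factor of actin genes, rose by 0.49. ACTB, the cytoskeletal beta-actin gene, was at 0.22, a call that held without Control 1 or CAMKV-KD 2 and was lost in the other 4 fits. Of 18 m6A writers, erasers and readers, 3 rose and 2 fell, with a median of 0.175. The share called was 27.8% against 36.3% of all tested genes, again a difference of few genes. YTHDF2, a reader that promotes decay, rose by 0.43, RBM15B, of the writer complex, by 0.24, and FTO, an eraser, fell by 0.38. METTL3 (0.16) and METTL14 (−0.33) form the writer's core. METTL3 lost its call in all 6 fits without a library, with upper-quartile factors and without the filter, and METTL14 lost its call without Control 2, CAMKV-KD 2 or CAMKV-KD 3.

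Of 9 tested HMG chromatin proteins, 4 rose and 2 fell (median 0.09), with HMGA1 among the 3 not called. The share called was 66.7% against 36.3% of all tested genes, a difference of few genes in a list of this size. HMGN1 rose by 0.28, HMGB3 by 0.27 and HMGB1 by 0.19, while HMGN4 fell by 0.68 and HMGN5 by 1.05. Of 11 tested genes linked to LIN28B in neuroblastoma, 1 was called higher and 2 fell (median −0.201). The share called was 27.3% against 36.3% of all tested genes, again a difference of few genes. IGF2, described above, was among those that fell. RAN, a nuclear transport GTPase, was at 0.10, a call that held without CAMKV-KD 1 and was lost when any other library was left out, and with DESeq2 size factors, upper-quartile factors, no filter and limma-voom. MYCN, which is both a let-7 target and a member of this list, was at 941.6, 1550 and 857.1 CPM in Control and 821.6, 864 and 960.2 CPM in CAMKV-KD, with overlapping groups (log2 −0.34, adjusted p = 0.332, edgeR).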

How the data were processed

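The authors deposited whole-number counts per gene for 6 libraries, with no normalization, per the file headers. The submitters' processing notes name HISAT2 2.1.0, StringTie 1.3.5 and FastQC 0.11.2, with GRCh38.p13. Not given in the sources used here were the annotation, the strand setting and the step from StringTie to counts. GENCODE 29 has genes on the other strand inside the loci of the 8 genes except LIN28A and HMGA1, and without strand their reads cannot be told apart. Each entry kept its own symbol, and a symbol on several entries went to the one with the highest mean count. Groups were compared in R 4.3.3 with edgeR 4.0.16 (filterByExpr, TMM, quasi-likelihood F-test, group as the only term), with Benjamini-Hochberg adjustment over 13366 genes. SE was derived from the log2 fold change and its F statistic. Alternatives were other scalings, no filter, DESeq2 1.42.0, limma-voom (limma 3.58.1), the replicate number as a block, and leaving out each library. Levels per kilobase used the exon union of GENCODE 29. The fits were tested on simulated data with the same dispersion for every gene. That setting does not cover genes that scatter between libraries like IGF2BP1 or DICER1. From each list, up to 3 called genes per direction were named, by smallest p. Some genes that this rule names are not reported here. HUWE1 and MYCN fall outside that rule and were chosen after their values were seen. The genes and lists were chosen with earlier results of these data known, and the comparison of spreads and of 3′ UTR matches was added after the counts were seen. Same-numbered libraries did not deviate together (correlations from −0.058 to −0.008 over 12516 genes), so the numbers were not taken as pairs.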

Additional observations from a re-analysis of the deposited data

How the results depend on the processing

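Of the 6 tested genes, 1 changed its call in any of 13 alternatives: scaled by library totals, IGF2BP3 was called (0.15, adjusted p = 0.0301), so that 1 of the 8 genes was called in place of 0. With a library left out, 0 of the genes were called in each of 6 fits. Their log2 fold changes ranged from −0.52 to −0.22 for LIN28B, −0.34 to 3.51 for IGF2BP1, −0.09 to 0.58 for IGF2BP2, 0.06 to 0.11 for IGF2BP3, −0.19 to −0.05 for HMGA1 and −0.93 to −0.11 for DICER1. The reversals were IGF2BP1 without CAMKV-KD 3 (−0.34) and IGF2BP2 without CAMKV-KD 2 (−0.09). The difference in the ratio of IGF2BP3 to IGF2BP2 turned to 0.09 without Control 2 and 0.11 without CAMKV-KD 2, in a range from −0.46 to 0.11. That of LIN28B to DICER1 turned to −0.31 without Control 3, in a range from −0.31 to 0.53. IGF2BP1 was also 2.31 in limma-voom. The cause was not tested. CAMKV stayed between −1.77 and −1.67. All genes called numbered 4857, and 3854 to 3980 with a library left out. The replicate number as a block, in samples that share only a number, gave 3337 calls and 0 of the 6 genes, lost the calls of ACTB, DROSHA, METTL3 and RAN, with IGF2BP1 at 2.13 and LIN28B at −0.38 (adjusted p = 0.0911). Of 37 genes named from lists, 30 kept their call and direction under all 13 alternatives. At 20238281 or more counts per library, LIN28A, HMGA2 and IGF2BP2 had at most 20 counts in any library. The pooled within-group SD of the log2 level was 2.52 for IGF2BP1 and 0.532 for DICER1. What limited the comparison of each gene was not tested.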
